A study of Mus musculus with 3 samples.

Results

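Long T cell receptor (TCR) α junctions, here CDR3α of 16 residues or more, were described in thymocytes at the CD4+CD8+ stage and in 5 populations selected from it. The members were taken by length alone, from productive α chains of cells in the expression matrix that carried exactly 1 such chain. They were 258 of 6982 cells (3.70%, exact Clopper-Pearson 95% interval 3.26 to 4.16) and 216 of 3237 different amino acid CDR3α (6.67%, 5.84 to 7.59), written by 234 nucleotide sequences.

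The cells came from the thymus of 8 female mice, 7 to 12 weeks old, which were pooled, sorted for Vα2 on the surface (encoded by TRAV14 genes) and marked with 1 hashtag per population. The strain label reads C56Bl/6- Tcliβ x TCRα+/- x Foxp3-GFP, so that all populations share a fixed TCRβ transgene, 1 intact TCRα allele and a Foxp3 reporter. DP denotes the CD4+CD8+ double-positive stage and CD4 SP the CD4 single-positive cells sorted as CD25-, FOXP3- and CD73-. Progenitors of regulatory T cells (TRP) were sorted as CD25+ or as Foxp3lo, and regulatory T cells (Treg) as CD73+ or CD73-, CD73 being a surface enzyme found on mature or recirculating thymic Tregs. DP cells were taken from whole thymus and the others from CD8-depleted thymus. The transgene holds the β chain constant in these mice, so the α repertoire seen here is the one that works with 1 β chain, and it need not be that of an unrestricted thymus. With 1 pool and 1 sort per population there was no replicate and no test. All intervals are 95% and reflect counting error alone, and sister cells from 1 clone do not count as independent. The matrix rows carry no gene names, so the sorted identities were not checked against marker genes, and the authors' clusters are given by number. One hashtag class is called just Treg in the metadata and was taken to be CD73- Treg.

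The α chain is joined in DP thymocytes from 1 TRAV and 1 TRAJ segment. Nucleases trim the segment ends, and terminal transferase adds bases without a template, so the length of the CDR3α depends on the TRAJ chosen, the trimming and the added bases. The CDR3α forms much of the contact with the peptide held by MHC, and DP cells survive and mature only if their receptor passes positive and negative selection. Treg lineage cells are selected in part on stronger self-reactivity.

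The following nucleotide sequences are the 10 long CDR3α carried by the most cells (the last of them 1 of several with 2 cells), each in its most frequent nucleotide form, and the longest chain of the data set. They show how the long junctions are put together. Cell counts are those of the amino acid CDR3α. The form shown was in 6 cells for TRAJ53 and in 3 each for the first TRAJ2 and for TRAJ57. It was in 2 cells each for TRAJ32, the second TRAJ52 and the second TRAJ2, and in all cells for the others. Lower case letters match the germline TRAV at the left or TRAJ at the right, and capitals mark bases that match neither.
TRAJ53, 9 cells: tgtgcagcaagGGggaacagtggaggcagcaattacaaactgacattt
TRAJ2, 6 cells: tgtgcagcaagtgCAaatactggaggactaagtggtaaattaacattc
TRAJ57, 5 cells: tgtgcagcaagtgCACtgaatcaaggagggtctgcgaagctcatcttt
TRAJ42, 4 cells: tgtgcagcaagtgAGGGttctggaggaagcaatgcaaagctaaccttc
TRAJ32, 3 cells: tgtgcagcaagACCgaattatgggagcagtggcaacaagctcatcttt
TRAJ4, 3 cells: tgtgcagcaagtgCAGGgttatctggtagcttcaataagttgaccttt
TRAJ52, first, 3 cells: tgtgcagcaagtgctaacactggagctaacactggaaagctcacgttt
TRAJ52, second, 3 cells: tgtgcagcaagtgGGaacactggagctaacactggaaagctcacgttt
TRAJ2, second, 3 cells: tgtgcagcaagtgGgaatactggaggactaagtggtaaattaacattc
TRAJ5, 2 cells: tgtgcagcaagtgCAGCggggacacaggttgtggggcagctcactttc
TRAJ58, 22 residues, 1 cell: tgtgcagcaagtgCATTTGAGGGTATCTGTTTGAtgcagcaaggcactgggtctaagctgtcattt

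For comparison, these are the germline CDR3 parts of the 5 TRAJ segments that carried the most long chains, with the part shared by all 8 TRAV14 copies seen, from GENCODE M21 on GRCm38, chromosome 14, plus strand. Lower case is used throughout, since no base is singled out.
TRAV14 family: tgtgcagcaagtg
TRAJ2: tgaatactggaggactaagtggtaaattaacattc
TRAJ52: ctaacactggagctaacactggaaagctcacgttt
TRAJ18: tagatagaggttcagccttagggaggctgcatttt
TRAJ53: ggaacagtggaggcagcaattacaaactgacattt
TRAJ32: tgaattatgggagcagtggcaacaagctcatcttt

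These TRAJ are annotated as joining gene segments, at positions 54217836 to 54217901 (TRAJ2), 54165316 to 54165381 (TRAJ52), 54200777 to 54200842 (TRAJ18), 54162644 to 54162709 (TRAJ53) and 54186101 to 54186166 (TRAJ32). Each supplies 35 bases to the CDR3. The first TRAJ52 sequence above has 13 TRAV bases, 0 unmatched bases and all 35 TRAJ bases, so both germline ends joined end to end give a CDR3α of 16 residues. The 22-residue chain has 21 unmatched bases between a full TRAV end and a full TRAJ58 part of 32 bases.

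Long CDR3α were most frequent in DP cells, where 104 of 1266 cells carried one (8.21%, 6.76 to 9.87). In CD4 SP, 60 of 1849 cells did (3.24%, 2.49 to 4.16). CD25+ TRP had the lowest share, 36 of 1783 cells (2.02%, 1.42 to 2.78). Foxp3lo TRP had 20 of 804 (2.49%, 1.53 to 3.82) and CD73+ Treg 29 of 1057 (2.74%, 1.84 to 3.92). CD73- Treg had 9 of 223 (4.04%, 1.86 to 7.52), and this interval overlaps those of all 5 other populations. The intervals of the 5 selected populations overlap one another, and those of 4 of them lie wholly below DP. Here and below, overlap of intervals does not show that the shares are equal. No difference was calculated between selected populations.

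Relative to each selected population, the DP share of cells was higher by 4.97 percentage points against CD4 SP (Newcombe interval 3.31 to 6.76), 6.20 against CD25+ TRP (4.61 to 7.93) and 5.73 against Foxp3lo TRP (3.81 to 7.59). It was higher by 5.47 points against CD73+ Treg (3.66 to 7.31) and by 4.18 against CD73- Treg (0.46 to 6.69). As ratios these are 2.53 for CD4 SP, 4.07 for CD25+ TRP, 3.30 for Foxp3lo TRP, 2.99 for CD73+ Treg and 2.04 for CD73- Treg.

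Counting each different CDR3α once per population removed the weight of repeated sequences and left the order of DP above the others. It also merged nucleotide sequences that encode the same amino acids. By nucleotide sequence with V and J gene, 8.44% were long in DP and from 2.64% to 4.39% in the selected populations. By amino acid sequence, 100 of 1092 different CDR3α were long in DP (9.16%, 7.51 to 11.03). The shares were 5.23% in CD4 SP (49 of 937, 3.89 to 6.85), 3.25% in CD25+ TRP (33 of 1015, 2.25 to 4.54) and 3.48% in Foxp3lo TRP (18 of 517, 2.08 to 5.45). They were 4.84% in CD73- Treg (9 of 186, 2.24 to 8.99) and 4.07% in CD73+ Treg (26 of 639, 2.67 to 5.91). The difference from DP was 3.93 points for CD4 SP (1.67 to 6.17), 5.91 for CD25+ TRP (3.88 to 7.98), 5.68 for Foxp3lo TRP (3.17 to 7.92) and 5.09 for CD73+ Treg (2.68 to 7.34). For CD73- Treg it was 4.32 points with an interval from -0.07 to 7.25, which includes 0.

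**Figure D1:**
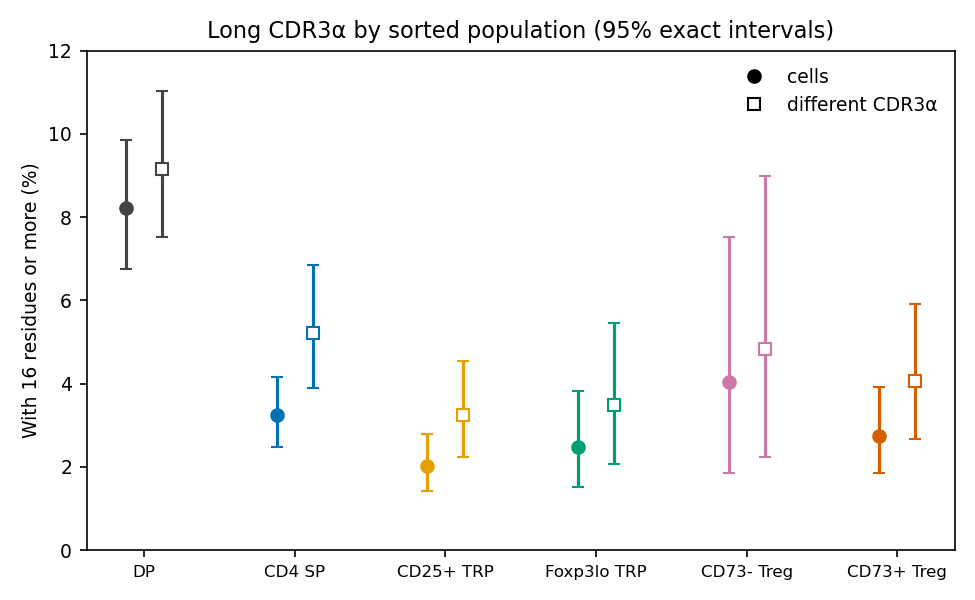
Share of chains with 16 residues or more (vertical axis, percent) in each sorted population, as cells (filled circles) and as different CDR3α (open squares), with exact 95% intervals. DP lies at 8.21% of cells, and the 5 selected populations lie between 2.02% and 4.04%.

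The threshold falls in the upper tail of the length distribution. Of the 258 long chains, 211 had 16 residues, 45 had 17, 1 had 18 and 1 had 22, and 763 cells lay just outside with 15 residues. In DP 165 cells had 15 residues and 81 had 16. In CD4 SP 212 had 15 and 48 had 16, and in CD25+ TRP 196 had 15 and 30 had 16. In Foxp3lo TRP 91 had 15 and 18 had 16, in CD73- Treg 25 had 15 and 8 had 16, and in CD73+ Treg 74 had 15 and 26 had 16. Mean length differed little, from 13.58 ± 1.39 residues (SD over cells) in DP to 13.30 ± 1.20 in CD73+ Treg.

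**Figure D2:**
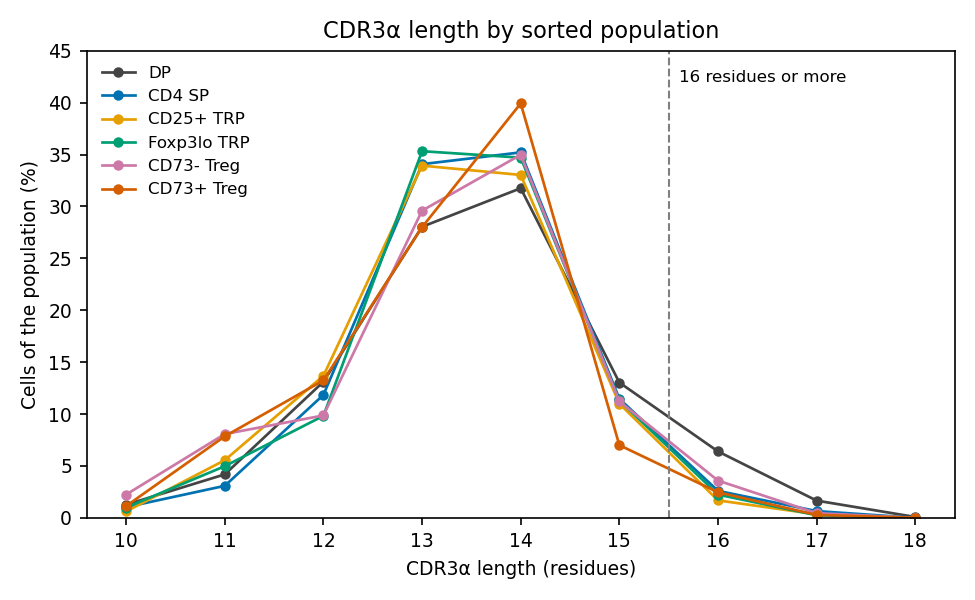
Percent of cells (vertical axis) at each CDR3α length from 10 to 18 residues (horizontal axis), 1 line per sorted population, with a dashed line at the threshold. To its right the DP line lies above the other 5 at 16 and 17 residues.

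The TRAJ segments used set the long chains apart from the rest. By the germline bases each TRAJ supplies to the CDR3, 6 TRAJ supply 34 or 35 bases (TRAJ2, TRAJ18, TRAJ28, TRAJ32, TRAJ52 and TRAJ53), 14 supply 31 to 33, and 23 supply 30 or fewer. The 6 longest were used by 50.8% of cells with a long CDR3α (131 of 258) and by 5.92% of cells with a shorter one. The middle class was used by 37.2% and 21.8%, and the class of 30 bases or fewer by 12.0% and 72.3%. Since a longer TRAJ part adds to the length that chose the members, this enrichment follows partly from the rule and is given as a description.

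TRAJ2 carried the most long chains, 34 of its 65 (52.3%, 39.5 to 64.9). TRAJ53 followed by share with 21 of 45 (46.7%, 31.7 to 62.1) and TRAJ52 with 28 of 73 (38.4%, 27.2 to 50.5). TRAJ18 and TRAJ32 supply the same 35 bases, yet 21 of 114 TRAJ18 chains (18.4%) and 19 of 200 TRAJ32 chains (9.50%) were long. TRAJ57, TRAJ42 and TRAJ4, which supply 32, 33 and 32 bases, had 16 of 173 (9.25%), 14 of 115 (12.2%) and 9 of 292 (3.08%). These 8 TRAJ held 162 of the 258 long cells (62.8%) and 13.6% of the shorter ones. At the other end, 11 of the 41 TRAJ with at least 20 cells had no long chain in 2010 cells together, and none of these 11 supplies more than 30 bases. The most used of them were TRAJ26, with 0 of 425 cells, TRAJ7 with 0 of 305 and TRAJ15 with 0 of 288. These counts of 0 allow long shares of up to 0.706%, 0.984% and 1.04%.

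**Figure D3:**
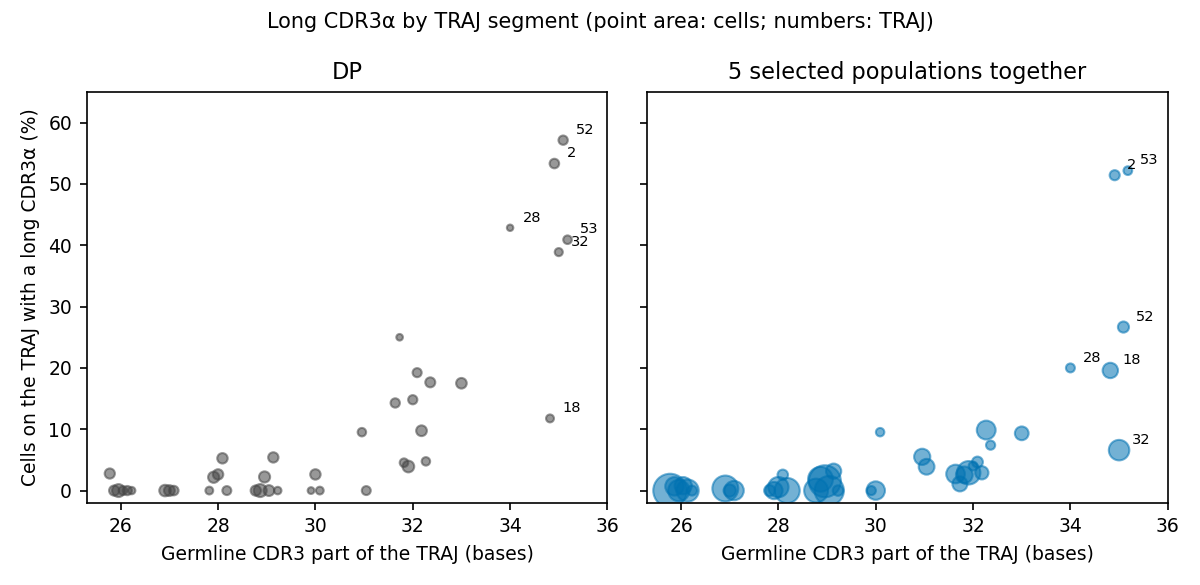
Share of cells on each TRAJ with a long CDR3α (vertical axis, percent) against the germline bases the TRAJ supplies to the CDR3 (horizontal axis, points of equal length set slightly apart), in DP (left) and the 5 selected populations together (right). Point area grows with the number of cells, and only TRAJ with at least 20 cells in all are drawn. TRAJ2 is near 50% in both panels, while TRAJ32 is at 38.9% in DP and 6.59% in the selected populations.

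Counted as cells, DP and selected cells differed both in which TRAJ they used and in the length of junctions made with a given TRAJ class. The 6 longest TRAJ were used by 9.64% of DP cells (8.07 to 11.4) and by 7.12% of selected cells (6.47 to 7.82). By population, only CD73+ Treg lay wholly below DP in this use (4.82% of cells, 3.61 to 6.30). Over different CDR3α the use was 9.89% in DP (8.18 to 11.8) and 8.38% in selected cells (7.32 to 9.55), and these intervals overlap. Among cells on these 6 TRAJ, 53 of 122 DP chains were long (43.4%, 34.5 to 52.7), against 78 of 407 selected chains (19.2%, 15.5 to 23.3). The shares by population were 29 of 157 in CD4 SP (18.5%, 12.7 to 25.4), 20 of 126 in CD25+ TRP (15.9%, 9.97 to 23.4) and 12 of 58 in Foxp3lo TRP (20.7%, 11.2 to 33.4). CD73- Treg had 5 of 15 (33.3%, 11.8 to 61.6) and CD73+ Treg 12 of 51 (23.5%, 12.8 to 37.5), and both overlap DP. Counted as different CDR3α, 45.4% were long in DP (35.8 to 55.2) and 27.2% in selected cells (21.2 to 33.8). On TRAJ of 31 to 33 bases, 11.8% of DP chains were long (42 of 356, 8.64 to 15.6) and 4.48% of selected chains (54 of 1206, 3.38 to 5.80). On TRAJ of 30 bases or fewer, the shares were 1.14% and 0.54%, with overlapping intervals.

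The single TRAJ of this class gave the following values. TRAJ52 was long in 16 of 28 DP chains (57.1%, 37.2 to 75.5) and 12 of 45 selected chains (26.7%, 14.6 to 41.9), with intervals that overlap. TRAJ32 was long in 7 of 18 DP chains (38.9%, 17.3 to 64.3) and 12 of 182 selected chains (6.59%, 3.45 to 11.2), and these intervals do not overlap. TRAJ2 gave 53.3% in DP (16 of 30) and 51.4% in selected cells (18 of 35), TRAJ53 gave 40.9% (9 of 22) and 52.2% (12 of 23), and TRAJ18 gave 11.8% (2 of 17) and 19.6% (19 of 97). For these last 3 TRAJ the intervals overlap as well, and whether the difference between DP and selected cells varies by TRAJ was not tested.

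TRAJ32 alone held 182 of the 407 selected cells on the longest TRAJ. Without it, the class was long in 44.2% of DP chains (46 of 104, 34.5 to 54.3) and 29.3% of selected chains (66 of 225, 23.5 to 35.8). These intervals overlap slightly. In the middle class the higher DP share was spread more widely, over 11 of the 13 TRAJ with a long chain.

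Use of some TRAJ moved as well. TRAJ2 was used by 2.37% of DP and 0.61% of selected cells, TRAJ52 by 2.21% and 0.79%, and TRAJ53 by 1.74% and 0.40%. TRAJ32 went the other way, at 1.42% of DP and 3.18% of selected cells. The segments that most often gave a long CDR3α were thus among those less used after the DP stage.

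Each selected population was also given the TRAJ mix of DP, over those DP TRAJ that it holds. With that mix the expected long share was 5.69% in CD4 SP, 4.03% in CD25+ TRP and 4.83% in CD73+ Treg, which is 2.54, 4.18 and 3.40 points below DP over the same TRAJ. In Foxp3lo TRP it was 4.72%, 2.13 points below the 6.85% of DP over the 96.8% of the mix covered. In CD73- Treg the direction turned, at 7.11% against 5.96% in DP over the 88.9% of the mix it covers, on only 9 long cells. Counted as cells, the CD4 SP difference therefore fell from 4.97 to 2.54 points, and the part left at fixed TRAJ was largest in CD25+ TRP. Over different CDR3α the difference moved from 3.93 to 2.74 points in CD4 SP and from 5.91 to 4.70 in CD25+ TRP. It moved from 5.68 to 2.78 in Foxp3lo TRP, from 5.09 to 3.94 in CD73+ Treg and from 4.32 to -1.21 in CD73- Treg. Here Foxp3lo TRP covers 96.6% of the DP mix and CD73- Treg 88.8%. Over those TRAJ the DP share itself was 7.68% and 6.80%, against 9.16% over all TRAJ. The falls in Foxp3lo TRP and CD73- Treg therefore do not measure TRAJ use alone. In CD4 SP, CD25+ TRP and CD73+ Treg, the size of the TRAJ component thus depends on whether repeated CDR3α are counted once. These reweighted values have no interval.

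Germline and unmatched bases both grew with length. From 13 to 17 residues, the mean number of bases matching neither segment was 2.26 at 13, 3.00 at 14, 3.91 at 15, 4.91 at 16 and 6.89 at 17 residues, with SDs over cells of 1.89, 1.78, 2.25, 2.59 and 2.33. Mean TRAJ bases rose over the same lengths from 25.4 to 32.0, while TRAV bases stayed between 11.3 and 12.4. The median long chain had 13 TRAV bases, 5 unmatched bases and 31 TRAJ bases, against 12, 3 and 27 in chains of 13 to 15 residues. Because the parts add up to the length, these differences describe how long chains are composed and carry no test.

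Trimming was light in long chains, which follows partly from choosing them by length. The median long chain had lost 1 base of its TRAJ and 0 of its TRAV, against 3 and 1 in chains of 13 to 15 residues. The whole TRAJ part was kept in 86 of 258 long chains (33.3%), against 21.1% of shorter ones, and the whole TRAV end in 163 (63.2%), against 40.04%. Only 4 long chains (1.55%) had no unmatched base, against 16.8% of shorter chains. On the 6 longest TRAJ, DP chains had lost 3.70 ± 2.52 TRAJ bases (SD over 122 cells) and selected chains 4.55 ± 2.22 (407 cells), with mean lengths of 15.17 ± 1.12 and 14.99 ± 0.83 residues. TRAJ32 made up 18 of these DP cells and 182 of these selected cells, and the part of TRAJ mix in the trimming was not tested. No test was made of these differences.

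**Figure D4:**
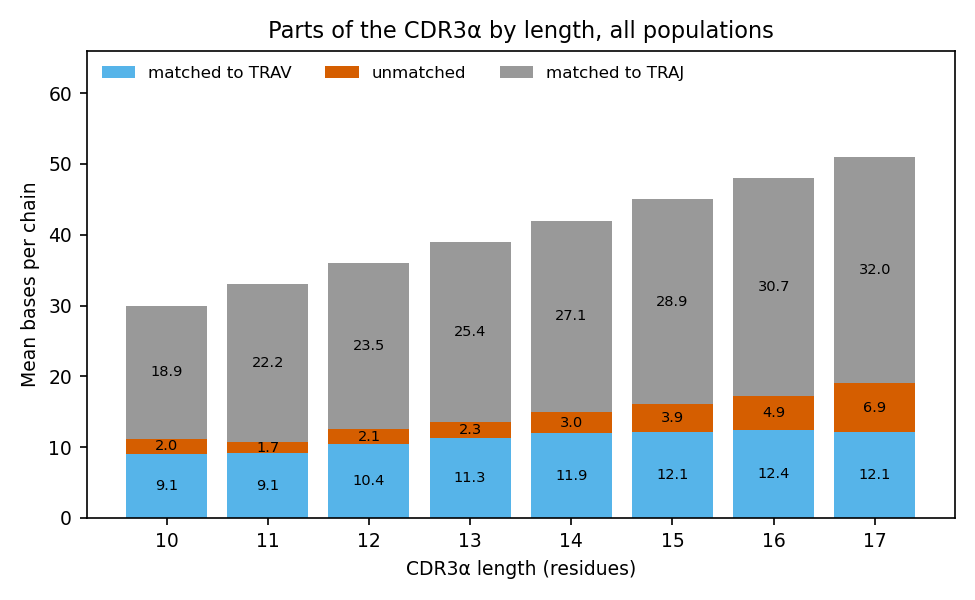
Mean bases per chain (vertical axis) matched to TRAV, unmatched, or matched to TRAJ at each CDR3α length from 10 to 17 residues (horizontal axis), over all populations. Unmatched bases grow from 2.26 at 13 residues to 6.89 at 17, and TRAJ bases from 25.4 to 32.0.

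The residues between the 3 at the start and the 5 at the end of the CDR3α were also compared. In long chains 23.8% of these were glycine, a small and flexible residue (22.0 to 25.7), against 19.9% in chains of 13 to 15 residues (19.5 to 20.3). With each CDR3α counted once, glycine was 22.9% (20.97 to 24.93) against 20.5% (19.86 to 21.23), and these intervals overlap. Hydrophobic residues (alanine, isoleucine, leucine, methionine, phenylalanine, valine and tryptophan) made up 18.5% (16.8 to 20.2) against 15.2% over cells, and 18.8% (17.02 to 20.7) against 16.02% (15.4 to 16.6) over different CDR3α. Asparagine made up 10.1% against 13.7% over cells, and 9.43% (8.12 to 10.9) against 12.7% (12.1 to 13.3) over different CDR3α. The TRAJ segments named above encode much of this stretch, so that composition and TRAJ use cannot be told apart here. All composition intervals count residues and not chains, with 2117 residues from the 258 long chains. Residues of the same chain are not independent, so these intervals are too narrow. Whether they overlap therefore does not decide if composition differs, and no difference in composition was tested. Among long chains, glycine was 22.1% in DP (19.3 to 25.0) and 25.0% in selected cells, and charged residues (aspartate, glutamate, lysine and arginine) 11.4% (9.34 to 13.7) and 9.16%, with overlapping intervals.

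By TRAV, 245 of the 258 long chains used the TRAV14 family, as did 6824 of all 6982 cells. The 8 copies share 1 germline CDR3 end of 13 bases and are near-identical elsewhere, so the assignment to a copy is uncertain. TRAV14-1 had 66 long chains of 1254 (5.26%, 4.09 to 6.65), TRAV14D-3-DV8 56 of 1781 (3.14%, 2.38 to 4.06), TRAV14N-1 42 of 995 (4.22%, 3.06 to 5.66) and TRAV14-3 31 of 485 (6.39%, 4.38 to 8.95). Each of these 4 had a higher share in DP than in selected cells, from 6.07% against 2.74% for TRAV14D-3-DV8 to 12.4% against 3.40% for TRAV14-3. In DP, 94 of 1156 TRAV14 chains were long (8.13%, 6.62 to 9.86) and 10 of 110 chains of other TRAV (9.09%, 4.45 to 16.1), which overlap.

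Long CDR3α seldom recurred. In 2 or more cells were 21 of 216 different long CDR3α (9.72%, 6.12 to 14.5), against 667 of 2292 (29.1%, 27.2 to 31.01) of 13 to 15 residues. By nucleotide sequence with V and J gene, the shares fell to 3.73% of long sequences (9 of 241, 1.72 to 6.97) and 14.8% of those of 13 to 15 residues (528 of 3563, 13.7 to 16.03). Within each single population the repeated share by amino acid sequence was also lower for long CDR3α. Only in CD4 SP did the intervals not overlap, at 10.2% (3.40 to 22.2) against 26.0% (22.8 to 29.4). DP held 104 of the 258 long cells and 922 of the 5420 of 13 to 15 residues. Its own repeated shares were 4% and 11.7%. Repeats also depend on how many cells of a length were sampled, and that part was not tested. Over all populations and by amino acid sequence, a long CDR3α was carried by 1.19 cells on average and by 9 at most, against 2.36 and 227. In 2 or more populations were 15 long CDR3α (6.94%, 3.94 to 11.2) and 545 of those of 13 to 15 residues (23.8%). Of the 21 repeated long CDR3α, 16 were written by 2 or more nucleotide sequences. With no label that ties a cell to a mouse, a clone and a repeated rearrangement cannot be told apart among cells with the same nucleotide sequence, TRAV and TRAJ. The 3 cells of the first TRAJ52 sequence shared 1 nucleotide form but were assigned 3 different TRAV.

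The TRAJ53 sequence at the head of the list was the only long CDR3α found in 5 populations. Its 9 cells were 2 DP, 3 CD4 SP, 1 CD25+ TRP, 1 Foxp3lo TRP and 2 CD73+ Treg, with 3 nucleotide sequences. The first TRAJ2 CDR3α, over its nucleotide forms, was in 5 CD4 SP cells and 1 Foxp3lo TRP cell. The TRAJ57 CDR3α, likewise over its nucleotide forms, was in 2 CD25+ TRP, 1 CD73- Treg and 2 CD73+ Treg cells. It was in 0 CD4 SP cells, which allows up to 0.162% of CD4 SP. With so few cells per sequence, no preference of a single long CDR3α for a population can be read from these counts.

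From DP onward, 4 of 100 long DP CDR3α were seen again in a selected population (4%, 1.10 to 9.93), against 249 of 779 of 13 to 15 residues (32.0%, 28.7 to 35.4) and 60 of 213 of 12 residues or fewer (28.2%, 22.2 to 34.7). The 4 used TRAJ53, TRAJ52, TRAJ2 and TRAJ4. The chance of seeing a sequence again also depends on how many cells of its length were sampled, which was 154 long and 4498 of 13 to 15 residues in the selected populations. Sampling and loss at selection cannot be told apart in this overlap.

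Among DP cells the authors' clusters differed in their long share. Cluster 4 had 47 of 349 cells (13.5%, 10.1 to 17.5), cluster 6 25 of 580 (4.31%, 2.81 to 6.30) and cluster 8 17 of 214 (7.94%, 4.70 to 12.4). Cluster 4 was higher than cluster 6 by 9.16 points (Newcombe interval 5.41 to 13.4) and than cluster 8 by 5.52 points (0.08 to 10.5). The interval of cluster 6, which held the most DP cells with exactly 1 productive α chain, overlapped those of all selected populations except CD25+ TRP. The share of DP cells with exactly 1 productive α chain differed between these clusters, at 29.4% in cluster 4 (349 of 1187), 69.7% in cluster 6 (580 of 832) and 27.8% in cluster 8 (214 of 769). Its part in the cluster differences was not tested.

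The smaller DP group in cluster 11 had 11 of 45 cells with a long CDR3α (24.4%, 12.9 to 39.5). These 11 cells carried 11 different CDR3α on 6 TRAJ, with 5 cells on 1 TRAJ, and they include the 22-residue chain. Of the 11, 10 were on TRAJ of 31 to 33 bases, a class used by 62.2% of DP cells in cluster 11 and 28.1% of all DP cells. The median expression UMI count of the 11 cells was 5524, as over all 45 DP cells of cluster 11, against 1619 over all long DP cells. In the same cluster, CD4 SP had 0 of 99 long chains (which allows up to 3.03%), CD25+ TRP 2 of 90 and CD73+ Treg 1 of 23. Whether cells captured together add to the 11 was not tested. Without cluster 11, the DP share was 7.62% of cells and 8.46% of different CDR3α.

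TRAJ use differed between these clusters too. The 6 longest TRAJ were used by 12.9% of cells in cluster 4, 7.59% in cluster 6 and 11.2% in cluster 8. On those 6 TRAJ the long share was 46.7% (21 of 45) in cluster 4, 40.9% (18 of 44) in cluster 6 and 50.0% (12 of 24) in cluster 8, with intervals that overlap widely. On TRAJ of 31 to 33 bases it was 19.5% in cluster 4 (22 of 113, 12.6 to 28.0), 2.80% in cluster 6 (4 of 143, 0.77 to 7.01) and 8.70% in cluster 8 (4 of 46, 2.42 to 20.8). The gap between clusters 4 and 6 thus lay mainly on the middle TRAJ class.

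In the selected populations, no cluster with at least 100 cells of a population exceeded the DP share. CD4 SP had 3.11% in cluster 1 (22 of 707) and 2.81% in cluster 2 (20 of 713). Foxp3lo TRP had 3.41% in cluster 0 (15 of 440), and CD73+ Treg 2.72% in cluster 3 (10 of 368) and 3.42% in cluster 9 (8 of 234). In CD25+ TRP, cluster 0 had 0 of 125 long chains, which allows up to 2.40%.

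**Figure D5:**
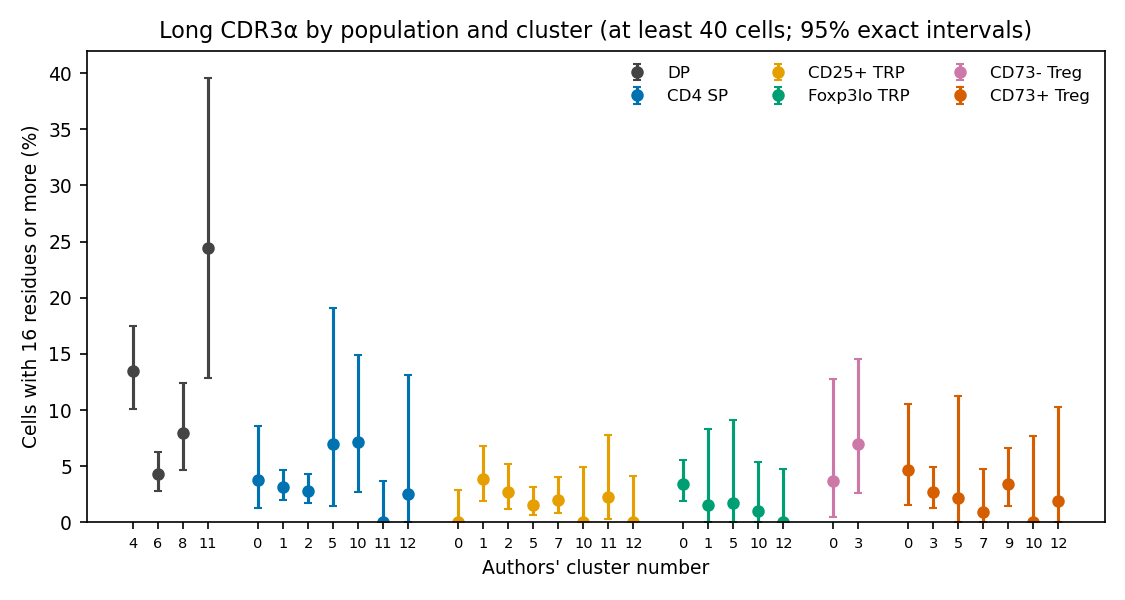
Share of cells with a long CDR3α (vertical axis, percent) in each authors' cluster (horizontal axis, cluster number), coloured by sorted population, for pairs of population and cluster with at least 40 cells and with exact 95% intervals. DP clusters 4 (13.5%) and 11 (24.4%) lie highest.

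Depth is given for long and shorter chains within a population. The median number of UMIs per α contig was 14 for long and 14 for shorter chains in DP, 19 and 19 in CD4 SP, and 21 and 22 in CD25+ TRP. Median reads per contig were lower for long chains in these 3 populations, at 651 against 726 in DP, 723 against 868 in CD4 SP and 762 against 898 in CD25+ TRP. They were also lower in Foxp3lo TRP (543 against 644) and CD73+ Treg (596 against 674) but not in CD73- Treg (620 against 600), and the part of depth in the long shares was not tested. The median expression UMI count per cell was 1619 for DP cells with a long chain and 1561.5 for those with a shorter one. The share of cells with exactly 1 productive α chain ranged from 41.9% in DP to 75.9% in CD4 SP, and its part in the difference between them was not tested.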

How the data were processed

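Single-cell expression, hashtag and TCRα-enriched libraries came from 1 pool of 8 mice. The authors deposited UMI counts per gene and cell (12208 cells), cell metadata with population and cluster, and UMI and read counts per TCR contig with segments, CDR3 and productivity. The submitters' processing notes name Cell Ranger 3.1.0 and Seurat 3.1.1, with GRCm38 and mm10 as builds. What each step did, which cells were filtered and how doublets were handled is not given in the sources used, and no doublets were removed here. The normalized matrix and the table of cells per CDR3α were not used here.

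Tables were joined by barcode, and clonotypes matched for 6982 of 6982 cells. Cells with 2 productive α chains (330) were left out. TRAJ germline bases were matched from the 3' end, then TRAV from the 5' end, against GENCODE M21. Chance matches count as germline, so unmatched bases are a lower count, and 1 chain lacked a germline match. Shares have exact Clopper-Pearson 95% intervals and differences Newcombe intervals. A count of 0 is given with the share that 3 cells would make. PCR and clonal copies are not independent, nor are residues of the same chain, so intervals cover counting error only.

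The members and lists were chosen with earlier results of these data known, and the TRAJ length classes and the extra values for TRAJ32, the DP clusters and repeated nucleotide sequences of 13 to 15 residues after seeing the data. Named sequences were the 10 with the most cells over all populations and, in each population, the longest and the most frequent; named TRAJ were the 8 with the most long chains, and named TRAV those with at least 20. TRAJ28, TRAJ26, TRAJ7 and TRAJ15 were named after their values were seen. Scripts (Python 3.11.15, pandas 2.3.3, scipy 1.17.1, statsmodels 0.14.6) were tested on simulated data.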

Additional observations from a re-analysis of the deposited data

Results flagged for a closer look

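Long CDR3α also appeared in chains that the comparisons did not use, which is why they are listed here. In cells with 2 productive α chains, 3.18% of chains were long (21 of 660, 1.98 to 4.82), and in DP 8.33% (7 of 84, 3.42 to 16.4). Barcodes absent from the expression matrix gave 3.44% (275 of 7987 productive chains, 3.05 to 3.87). Nonproductive α contigs of cells, for which a CDR3 was given, were long in 31.4% (38 of 121, 23.3 to 40.5).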

How the results depend on the processing

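Of 267 values under other settings, 214 stayed within the interval of the reported value, 51 moved and 2 turned direction, and DP was higher in 103 of 105 differences. With a threshold of 15 residues, the shares of cells were 21.2% in DP, 14.7% in CD4 SP, 9.74% in CD73+ and 15.2% in CD73- Treg, 13.8% in Foxp3lo TRP and 13.01% in CD25+ TRP, and those of different CDR3α, in the same order, 23.5%, 19.3%, 13.3%, 15.6%, 15.7% and 16.7%. DP was then higher by 8.24 points of cells than CD25+ TRP, by 11.5 and 10.2 points of cells and different CDR3α than CD73+ Treg, and by 7.94 points of different CDR3α than CD73- Treg, and 15.9% of CDR3α were repeated. With a threshold of 17 the shares of cells, again in that order, were 1.82%, 0.649%, 0.284%, 0.448%, 0.249% and 0.337%, and of different CDR3α 2.11%, 1.28%, 0.469%, 0.538%, 0.387% and 0.591%. The DP excess in cells and in different CDR3α was then 1.17 and 0.83 points for CD4 SP, 1.48 and 1.52 for CD25+ TRP, 1.57 and 1.72 for Foxp3lo TRP, and 1.53 and 1.64 for CD73+ Treg, and 0 CDR3α were repeated. With the TRAJ mix of DP, the shares of cells were 5.69% in CD4 SP, 4.83% in CD73+ Treg, 4.72% in Foxp3lo TRP and 4.03% in CD25+ TRP, and the DP excess 2.54, 3.40, 2.13 and 4.18 points. It was 2.78 points of different CDR3α in Foxp3lo TRP, and in CD73- Treg it turned to -1.16 points of cells and -1.21 of different CDR3α. Foxp3lo TRP and CD73- Treg lack some TRAJ of DP, so the DP share was taken only over the TRAJ they hold. By nucleotide sequence with V and J gene, 3.73% were repeated. Counting each CDR3α once gave long shares of 4.89%, 4.29% and 5.66% in clusters 1, 2 and 3. Leaving out cluster 11, chosen after seeing the data, kept every value within its interval. No paired analysis was possible because there was 1 sample per population. CD73- Treg, with 9 long cells, limits every comparison it enters.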
